A study of Mus musculus with 2 samples.

Results

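Guanylin and uroguanylin, the peptides that set salt and water secretion in the gut, were compared with their receptor pathway in mouse small-intestinal organoids cultured with or without the cytokine RankL. The pathway was taken as 5 genes, Guca2a, Guca2b, Gucy2c, Prkg2 and Cftr, found through the RefSeq accessions of the array probes. They had 7 of the 41119 non-control probes with a ratio on both arrays. All 5 genes were among the 12877 measured genes or accessions, through 6 of these 7 probes. The genes were chosen with results of this same comparison known, so their values are a description and carry no test. Both peptide genes were about 11-fold higher with RankL, by 3.45 on the log2 scale for each. The receptor gene Gucy2c read lower, by -0.72, and the other 2 genes lay between the receptor and the peptides.

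Guanylin (Guca2a) and uroguanylin (Guca2b) are small peptides that the intestinal epithelium secretes into the lumen. They bind guanylate cyclase C (Gucy2c), a receptor in the apical membrane that makes the messenger cGMP. cGMP activates the membrane-bound kinase encoded by Prkg2, which phosphorylates and opens the chloride channel encoded by Cftr, so that chloride, bicarbonate and water leave the cell. Bacterial heat-stable enterotoxin uses the same receptor and causes secretory diarrhoea.

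The organoids, epithelial structures grown from intestinal crypts, came from wildtype mice and were kept in crypt medium with EGF, Noggin and R-spondin in both groups. One group received recombinant mouse RankL and the other was left without treatment. RankL, the ligand of the receptor RANK, was added at concentrations between 50 and 200 ng/ml, and the medium was renewed on days 2 and 5. The sources used here state neither the dose and time point of the arrayed RNA nor the age of the mice.

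Dual-colour hybridisation was done on 2 arrays of 1 slide. RankL RNA was labelled with Cy3 on array 1 and with Cy5 on array 2, which the labels call the dye swap of the first, so the arrays hold 1 RNA pair and count as 1 replicate per group. No statistical test was possible and no p-value is given. Each ratio is a log2 ratio of RankL over untreated, and each ± gives the SD between the 2 arrays, which is technical and leaves out the spread between cultures. A gene was called higher or lower if its mean ratio was at least 2-fold, which is 1 on the log2 scale, and at least 0.5 in that direction on each array. By this size rule 704 genes (5.47%) were called higher and 322 (2.5%) lower. Between 38.3% and 43.4% of non-control spots were well above background in each channel, and 0 spots were saturated. The median SD of the arrays over genes was 0.148 and the 90th percentile 0.382.

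The 2 peptide genes are adjacent protein-coding genes on mouse chromosome 4, on opposite strands, and point towards each other. Their promoters are shown because these 2 genes had nearly the same ratio. Each sequence is the 250 bases before the annotated start of the gene, from RefSeq on build GRCm38.p6, written 5′ to 3′ on the gene's strand. Guca2a lies on the plus strand and its window at chr4:119637482-119637731. Guca2b lies on the minus strand and its window at chr4:119658946-119659195. Capitals mark matches to a GATA site, which are in the Guca2a window alone.
Guca2a: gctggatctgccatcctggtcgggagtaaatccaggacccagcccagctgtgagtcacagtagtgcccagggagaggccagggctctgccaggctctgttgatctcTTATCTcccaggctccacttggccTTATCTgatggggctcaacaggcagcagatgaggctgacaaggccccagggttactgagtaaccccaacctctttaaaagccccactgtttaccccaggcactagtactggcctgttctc
Guca2b: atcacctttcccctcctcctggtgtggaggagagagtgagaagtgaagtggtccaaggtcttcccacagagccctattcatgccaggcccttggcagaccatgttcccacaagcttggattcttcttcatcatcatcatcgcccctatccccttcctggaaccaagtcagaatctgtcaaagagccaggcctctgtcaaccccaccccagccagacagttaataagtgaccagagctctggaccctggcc

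The GATA site AGATAA, bound by GATA factors, had 2 matches in Guca2a, both on the minus strand, 144 and 120 bases before the start, and 0 in Guca2b. A match on either strand was present in 9.99% of 32851 promoter windows of the same length. Both strands were also searched for the CDX core TTTAT, the TATA box TATAAA, the Ets core of Spib (GAGGAA) and the NF-kB site. Shorter Ets strings such as GGAA, which stands in the Guca2b window, were not searched. The 4 searches gave 0 matches in either window. The Cftr promoter, searched in the same way and not shown, held 2 matches to GAGGAA, 163 and 39 bases before the start, and 0 to the other motifs. These 4 motifs occur in 37.3%, 12.4%, 23.2% and 7.25% of all windows. The motifs were chosen with the ratios known. A match is only a match of letters, and letters missing from these windows say nothing of a factor's binding elsewhere. Promoter sequences of Gucy2c and Prkg2 were not used here.

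Guanylin RNA was abundant in signal and far higher with RankL on each array. The Guca2a spot had a median intensity of 50005 in RankL RNA and 6999 in untreated RNA on array 1. On array 2 it had 55041 in RankL RNA and 5364 in untreated RNA. RankL was the brighter channel in both dye orientations, and local backgrounds ranged from 26 to 109.5. After normalization the ratio was 3.43 on array 1 and 3.47 on array 2, a mean of 3.45 ± 0.029 or 10.9-fold.

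**Figure D1:**
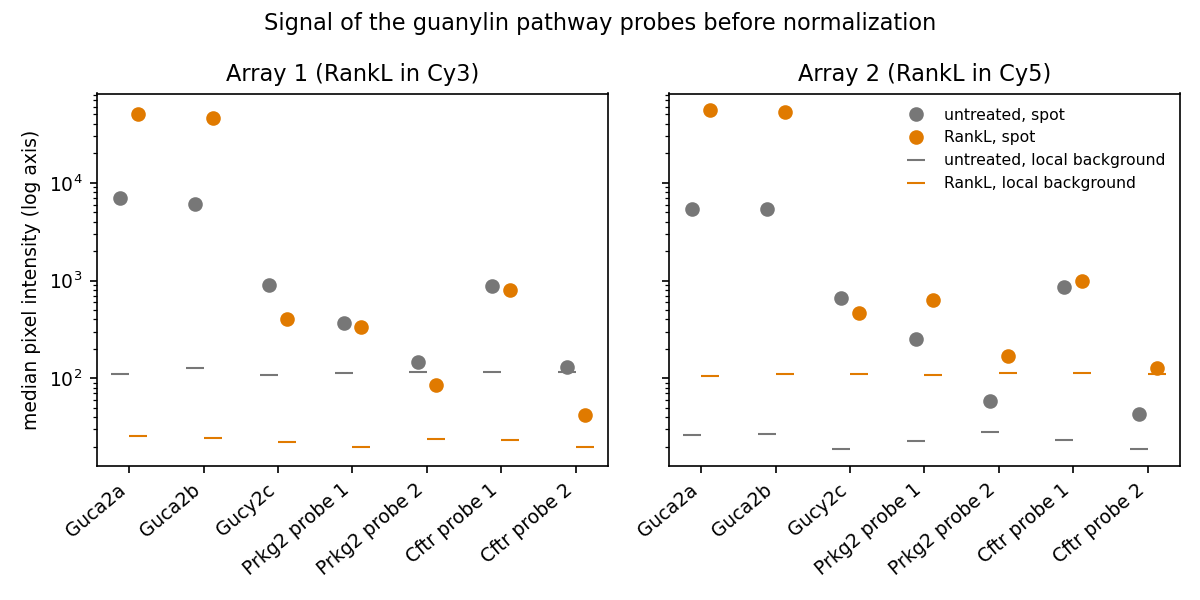
Median pixel intensity (log axis) of each probe of the 5 genes before normalization, for RankL RNA (orange) and untreated RNA (grey) on array 1 and array 2, with short bars for the local background. The RankL spots of Guca2a and Guca2b stand between 46195 and 55041 and their untreated spots between 5364 and 6999, while the second Cftr probe lies close to its background in every channel.

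Uroguanylin, which binds the same receptor, showed a ratio of the same size. The Guca2b spot had an intensity of 46195 in RankL RNA and 6124 in untreated RNA on array 1. On array 2 it had 52967.5 and 5412. Again the RankL channel was the brighter on both arrays. The ratios were 3.50 and 3.40, with a mean of 3.45 ± 0.070 or 10.9-fold. The 2 peptide genes differed by 0.00075 on the log2 scale, with an SD of 0.098 between arrays, and Guca2b read above Guca2a on array 1 and below it on array 2. Their order is therefore within the error of the arrays. Whether the probes bind both transcripts was not tested, because the letters of the probes were not used here.

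Placed among all genes, the peptides ranked 46 (Guca2b) and 47 (Guca2a) from the highest of 12877 measured genes, so 0.349% and 0.357% of genes had a higher ratio. Among the 11477 genes well above background in both RNAs they ranked 35 and 36. Guca2b and Guca2a were called higher by the size rule, 2 of 5 pathway genes beside 5.47% of all genes, and 7.97% of all genes were called in either direction. Because the pathway was chosen on this contrast, that count carries no inference.

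**Figure D2:**
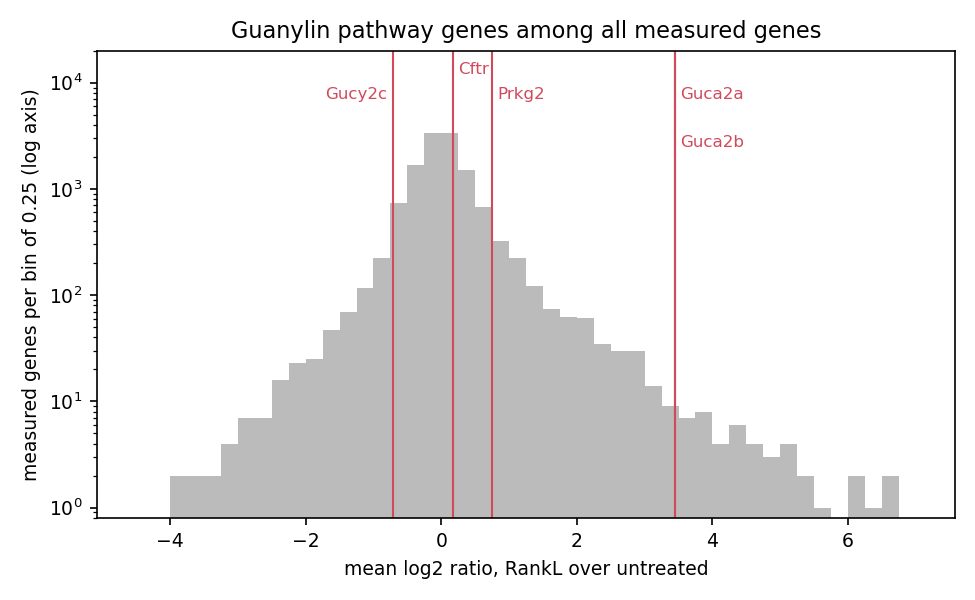
Number of measured genes per bin of 0.25 (log axis) by mean log2 ratio of RankL over untreated, with red lines at the 5 pathway genes. Guca2a and Guca2b overlie each other at 3.45 in the thin upper tail, Cftr at 0.18 lies in the centre, and Gucy2c at -0.72 and Prkg2 at 0.74 lie on opposite flanks.

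Those genes near the peptide pair on chromosome 4 that were measured had smaller ratios. Foxj3, a forkhead transcription factor gene next to Guca2a, was at 0.29 ± 0.010 by its measured probe. Of the 3 protein-coding genes on the Guca2b side, Hivep3 had no matched probe, Edn2 (endothelin 2, a vasoactive peptide) was called higher at 1.19 ± 0.044, and Foxo6 was at -0.024 ± 0.64. Rimkla on the Guca2a side was not measured and Frg2f1 had no matched probe. Thus 3 of these 6 neighbours were measured and 1 was called higher, beside 5.47% of all genes. A count over so few genes carries no inference.

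The receptor gene Gucy2c read lower in RankL RNA but was not called by the size rule. It had a spot intensity of 408 in RankL RNA and 901 in untreated RNA on array 1, and of 470 in RankL RNA and 658 in untreated RNA on array 2. Untreated RNA was the brighter channel in both orientations. The ratio was -0.74 on array 1 and -0.69 on array 2, a mean of -0.72 ± 0.035, so RankL RNA held 60.8% of the untreated level. With a smaller threshold of 1.5-fold Gucy2c was 1 of 934 genes called lower among the 12877 measured, beside 322 under the 2-fold rule. Its ratio was larger in size than the technical SD of the arrays, which says nothing of the spread between cultures, and 4.68% of measured genes had a lower ratio. Guca2a exceeded Gucy2c by 4.17 on array 1 and 4.16 on array 2, and Guca2b exceeded it by 4.24 and 4.09.

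The kinase gene Prkg2 was read by 2 probes. For the brighter one the spot intensity was 336.5 in RankL RNA and 367.5 in untreated RNA on array 1, over backgrounds of 20 and 112.5. On array 2 it was 631.5 and 255, over backgrounds of 108.5 and 23. The ratios were 0.42 and 1.06, with a mean of 0.74 ± 0.45 or 1.67-fold, which did not meet the size rule. Both arrays lay above 0, but this SD was larger than that of 94.1% of genes, and array 2 alone would have been called higher. The dimmer probe read 0.43 and 0.45, with untreated RNA well above background on array 1 and not on array 2. On array 1 the probes read alike, and the difference between them came from array 2.

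The chloride channel gene Cftr had the smallest difference of the pathway. One of its probes was printed 10 times on each array, which gives an error within the array. On array 1 the spot intensity of RankL RNA ran from 599 to 986 with a median of 857.5, and that of untreated RNA from 604 to 1052 with a median of 890.2. On array 2 it ran from 719.5 to 1252 with a median of 941.5 for RankL RNA, and from 616 to 1054 with a median of 893 for untreated RNA. The ranges of the 2 RNAs overlapped on both arrays. The ratio over the 10 spots was 0.25 ± 0.24 (SD of spots) on array 1, with 8 spots above 0, and 0.099 ± 0.23 on array 2, with 7 spots above 0. The mean of the arrays was 0.18 ± 0.11 (SD of arrays) or 1.13-fold, smaller than the SD of single spots on each array. That SD is the spread of single spots and not the error of a mean over 10 of them. For the 115 measured probes that were printed 10 times the median SD of spots was 0.141 on array 1 and 0.154 on array 2, below that of the Cftr spots on each array. The second Cftr probe was not well above background in any channel and has no usable ratio.

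**Figure D3:**
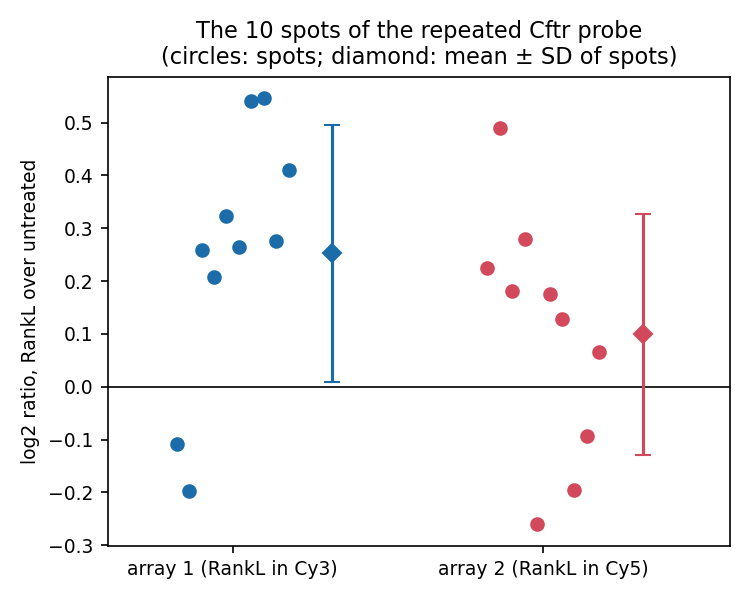
Log2 ratio of RankL over untreated for each of the 10 spots of the repeated Cftr probe on each array (circles), with the mean and SD of the spots (diamond and bar). The spots run from -0.20 to 0.55 on array 1 and from -0.26 to 0.49 on array 2, on both sides of 0.

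In order of their ratios the genes stood as Guca2b and Guca2a, Prkg2, Cftr and Gucy2c. The step from Guca2a to Prkg2 was 2.70 ± 0.42 and that from Cftr to Gucy2c was 0.89 ± 0.14, both larger than the SD of the arrays. The step from Prkg2 to Cftr was 0.57 ± 0.56, close to its error, at 0.17 on array 1 and 0.96 on array 2. Signal cannot be set side by side between probes, so no order of expression levels is given.

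**Figure D4:**
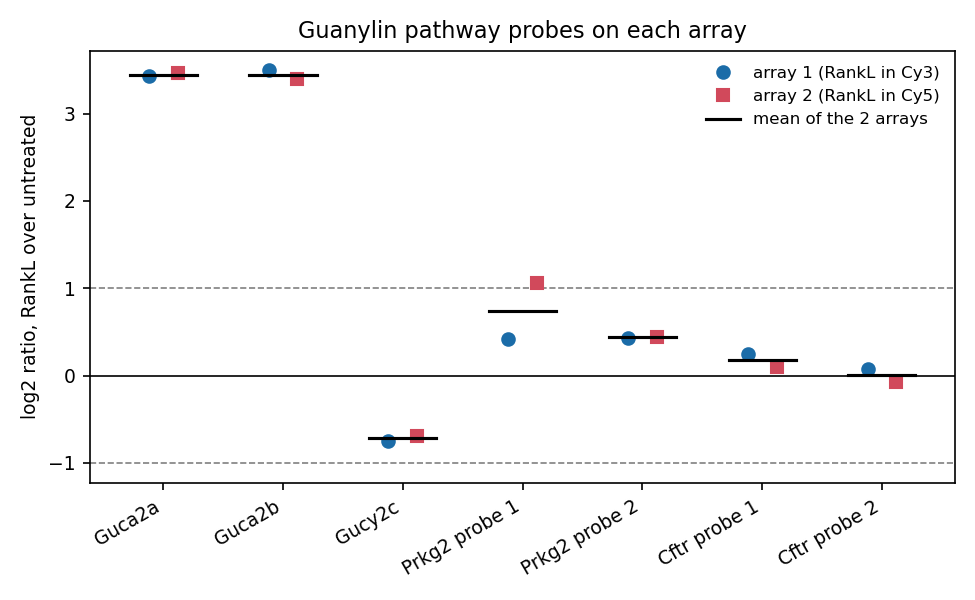
Log2 ratio of RankL over untreated for each probe of the pathway on array 1 (circles) and array 2 (squares), with the mean as a black bar and dashed lines at -1 and 1. The peptide probes agree between arrays at 3.40 to 3.50, Gucy2c lies at -0.74 and -0.69, and the brighter Prkg2 probe differs between arrays (0.42 and 1.06).

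Genes nearest in ratio were sought as a description over the ratios of the 2 arrays alone, among 9423 genes with a symbol that were well above background in both RNAs. The nearest gene to each peptide was the other peptide, at a Euclidean distance of 0.098. Next to Guca2a came Il4i1, a secreted amino acid oxidase, and Rac2, a GTPase, at mean ratios of 3.51 and 3.38. Next to Guca2b came Rab32, a GTPase of vesicle traffic, at 3.57, and Il4i1. Nearest to Gucy2c were Rabgap1l (-0.71), H2ac15 (-0.74) and Angpt2 (-0.74). Ptprk (0.76), Pdpk1 (0.77) and Trim55 (0.78) stood nearest to Prkg2, and Rad52 (0.17), Gng12 (0.18) and Sp6 (0.18) to Cftr. With 1 contrast such likeness is one of ratio only.

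The wider pathway was described with 9 lists of 61 genes. They covered cGMP synthesis, breakdown, export and action, the ion transport it controls, and transcription factors of the gut epithelium. Of the 61 genes, 59 had a matched probe and 33 were measured. Of the 33, 8 were such transcription factors, with 0 called. The size rule called 3 of the 33 (9.09%) higher and 1 (3.03%) lower, beside 5.47% and 2.5% of all genes. Their median ratio was 0.125, against 0.0086 over all measured genes.

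Genes of other routes to cGMP were not measured. None of the 3 natriuretic peptide genes (Nppa, Nppb, Nppc) was well above background, and neither was any of 7 probed genes of other guanylate cyclases and natriuretic peptide receptors, among them Npr1, Npr2, Gucy1a1 and Gucy1b1. Of the guanylate cyclase genes looked at, only Gucy2c was thus measured. Dim probes give no ratio, and low expression of those genes remains possible.

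Of 11 phosphodiesterase genes, which encode enzymes that break down cyclic nucleotides, 6 were measured, with 1 called higher, 0 lower and a median of 0.35. Pde1b, a calcium- and calmodulin-dependent enzyme, was at 1.09 and 1.0 on the 2 arrays, a mean of 1.04 ± 0.063 that barely met the rule and fell short of it with median centring (0.96) and on array 2 alone (1.0). Its relative Pde1c was well above background in RankL RNA on both arrays, while untreated RNA fell short of this on an array or on both. Pde1c was at least 1.61-fold higher in the reported setting. That bound sets its RankL signal against the lowest untreated signal called well above background, or against the probe's own signal where that is higher. The log2 ratio of Pde1c was 0.75 ± 0.18, with 0.63 on array 2 alone and 0.63 without background correction, both of which lie below the bound. Its 2 other measured probes had mean ratios of 0.89 and 0.81. A normexp offset of 16 gave 1.22 and the ratios of the scanner software gave 3.08, and Pde1c was called higher in both. The cGMP-specific Pde5a was at 0.027 ± 0.13 and is given here after its value was seen. Pde6d, in the same list, encodes a subunit that carries prenylated proteins and is not itself a hydrolase.

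Both genes of transporters that export cyclic nucleotides were measured. Abcc5 was called higher, with a mean of 1.47 ± 0.035 or 2.77-fold. Abcc4, which lies in the apical membrane with Cftr, was at 0.56 ± 0.21 and did not meet the rule.

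Of 8 genes of cyclic nucleotide kinases and the kinase substrate Vasp, 4 were measured and 0 called, with a median of -0.091. The soluble cGMP kinase gene Prkg1 was not well above background. Prkar2a, a regulatory subunit of protein kinase A, was at -0.66 ± 0.20, and was called lower with the scanner software's ratios (-1.36). For Vasp the ratio was -0.25 ± 0.098, and its other measured probe read 0.064.

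Of 5 apical scaffold genes, 4 were measured, with 1 called higher and a median of 0.54. Pdzk1, a PDZ protein that anchors transporters in the brush border, was at 2.59 and 3.04, a mean of 2.82 ± 0.32 or 7.05-fold. Slc9a3r1 (NHERF1), which tethers Cftr, was at 0.64 ± 0.22 and was not called.

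The apical exchangers gave 2 measured genes of 4. Slc26a3, the chloride-bicarbonate exchanger whose loss causes congenital chloride diarrhoea, was called lower at -1.33 and -1.30. RankL RNA fell short of well above background on an array or on both. The bound of 2.48-fold lower, in the reported setting, rests on the probe's own signal and has the size of its mean ratio (-1.31). Array 2 alone (-1.30) and no background correction (-1.26) gave ratios smaller in size. Slc26a6, another anion exchanger, had a ratio of 0.44 ± 0.20, and its other probe read 0.46. The sodium-hydrogen exchanger gene Slc9a3, which cGMP signalling inhibits, was not measured.

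Of 9 genes of basolateral and related transport, 7 were measured and 0 called, with a median of -0.047. The calcium-activated potassium channel gene Kcnn4 was at -0.99 ± 0.52, with -0.62 on array 1 and -1.35 on array 2. It was just short of the rule, and was called lower with median centring, with an offset of 16, with the scanner software's ratios and on array 2 alone. Slc12a2, the cotransporter that loads cells with chloride for secretion, was at -0.84 and -0.88, a mean of -0.86 ± 0.029, and at -1.01 with the scanner software's ratios, where it was called lower. Both therefore read lower on each array, as Gucy2c did.

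**Figure D5:**
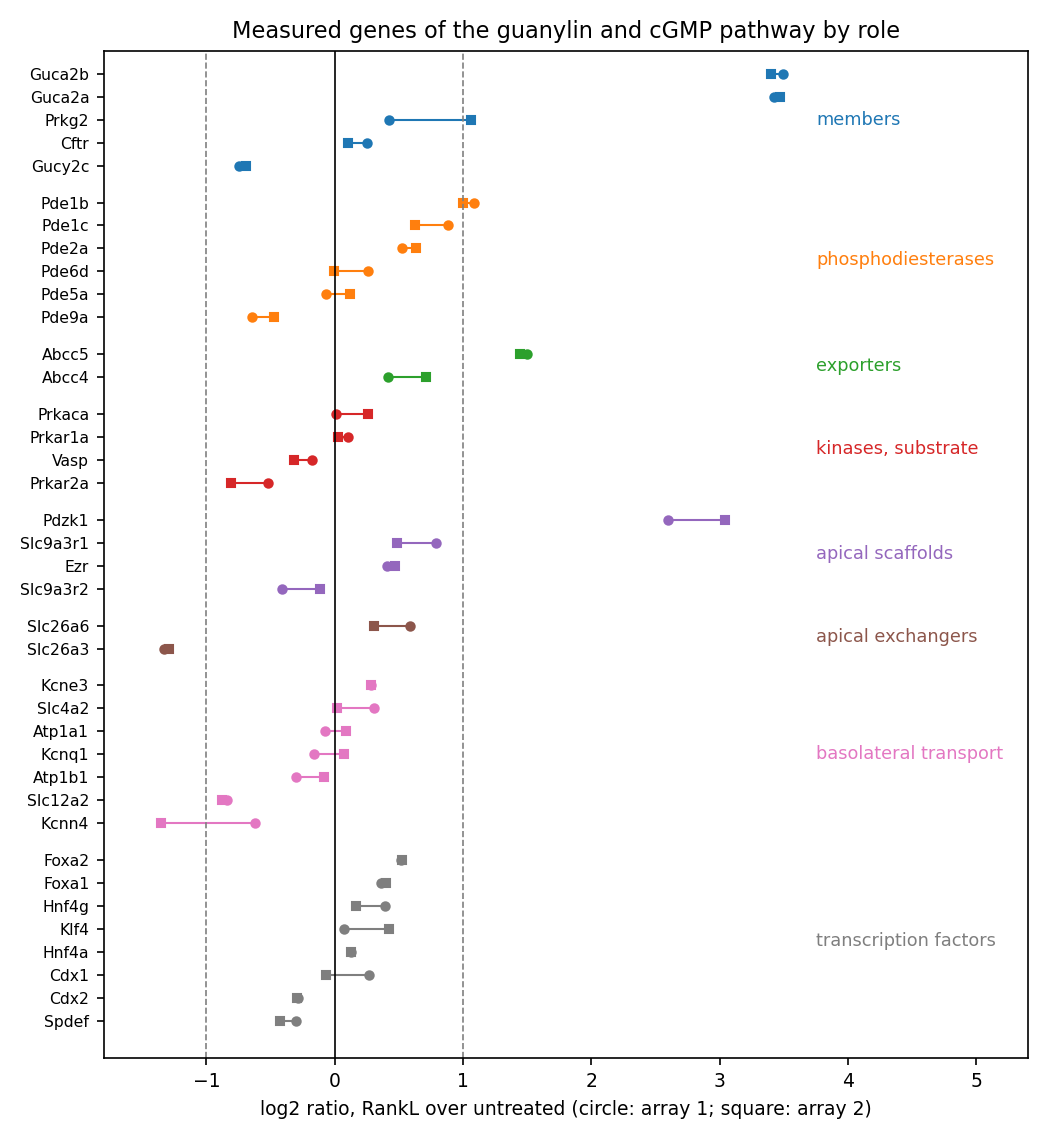
Log2 ratio of RankL over untreated on array 1 (circle) and array 2 (square) for the 5 pathway genes and the 33 measured genes of the wider lists, grouped by role, with dashed lines at -1 and 1. Guca2a, Guca2b and Pdzk1 lie far to the right and Slc26a3 far to the left, while most genes of the lists lie between -1 and 1 on both arrays.

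Of 10 transcription factors of the gut epithelium, 8 were measured and 0 called, with a median of 0.185. The forkhead factor genes Foxa2, at 0.52 ± 0.0052, and Foxa1, at 0.38 ± 0.029, had the largest ratios of this list. Cdx2, the intestinal homeodomain factor known to act on the Gucy2c promoter, was at -0.29 ± 0.0066 and is named after its value was seen.

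Cell type markers were set beside these values, since guanylin peptides are made by enterocytes and secretory cells. All 7 general epithelial markers were measured and 0 were called. Of 14 markers of fibroblasts, endothelium and leukocytes 13 had a probe and 1, Col1a2, was measured. Beside the counts of the lists that follow stand 5.47% of all genes called higher and 2.5% called lower. Of 10 enterocyte markers 5 were called higher and 1 lower, with a median of 1.0. The higher ones were Anpep at 7.02-fold, Apoa4 at 5.92-fold, Krt20 at 5.28-fold, Apoa1 at 3.99-fold and Fabp2 at 2.13-fold, and Fabp1 was 8.10-fold lower. The summed normalized signal of this list was 137697.6 and 129012.2 in RankL RNA on arrays 1 and 2, and 108821.5 and 129610 in untreated RNA. The sums were higher with RankL on array 1 and near-equal on array 2. A sum over probes is weighted to the brightest of them, here Fabp1 in untreated RNA. It therefore does not show whether the markers kept their levels. Of 8 goblet cell markers 3 were called higher and 2 lower, with a median of -0.32. Fcgbp, Zg16 and Clca1 were the higher ones, and Spink4 and Agr2 the lower ones. The summed signals were 18256.7 and 17389.4 with RankL against 17690.2 and 18742.8 without. All 8 M cell markers were called higher, with a median of 4.54. This list holds genes known from the study, so its count is not independent evidence. Its summed signal was 62226.2 and 64630 with RankL against 2841.8 and 2284.9 without. The size rule called 2 of 4 measured Paneth cell markers higher and 1 lower, 2 of 9 enteroendocrine markers higher and 0 lower, 1 of 4 tuft cell markers higher and 0 lower, and 1 of 4 stem cell markers higher and 2 lower. The part of these markers in the ratios of the guanylin genes was not tested. In RNA of whole organoids, more cells of a type and more RNA per cell cannot be told apart.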

How the data were processed

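Total RNA of mouse organoids was measured on 2 dual-colour Agilent arrays. The deposited scanner files hold unnormalized spot and background intensity values (median pixels, Cy3 and Cy5), per the file headers. Their log10 ratios were background-subtracted and dye-normalized by Agilent Feature Extraction 10.5.1.1, per the file headers, while version 8.5.1.1 stands in the submitters' processing notes. The deposited flags are other per-spot values of 0 or 1. The authors' series matrix repeats the log10 ratios to within 5.0e-06, as RankL over untreated, with column medians of 0.

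Background was corrected with normexp (offset 50) and ratios normalized by loess in limma 3.58.1 (R 4.3.3), giving weight 0 to the 1639 controls among 45018 spots. Controls and spots flagged as outliers (246 and 231) were then dropped. A probe was measured if well above background in 1 of the RNAs on both arrays (in at least 0.5 of repeated spots), which held for 16458 probes (40.0%). Accessions were named through RefSeq GRCm38.p6 (65.4% of probes). The array design is on mm9, so its coordinates are not printed. The brightest measured probe stood for a gene. Bounds used levels after loess and Aquantile normalization. The code was tested on simulated data. Some genes of the transcription factor list are not reported here and were left out of its counts. From each pathway list, called genes and the 2 with the largest ratios are named; marker genes are named after their values were seen. The genes and lists were chosen with earlier results of these data known. Alternatives changed 1 choice at a time, except the scanner software's ratios and the series matrix, which replace background correction and normalization together.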

Additional observations from a re-analysis of the deposited data

How the results depend on the processing

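Guca2a and Guca2b were called higher under all 11 alternatives that gave a count, and their ratios ran from 3.13 to 3.51 and from 3.13 to 3.61 over 10 of them. Several of these could not change the calls. A 1.5-fold threshold keeps every 2-fold call, and the series matrix repeats the scanner software's ratios. Including dim probes, averaging measured probes or keeping outlier spots left both ratios as reported. Gucy2c ran from -0.86 to -0.69, Prkg2 from 0.42 to 1.06 and Cftr from 0.068 to 0.25, with no change of sign. With a 1.5-fold threshold, Prkg2 was called higher as well and 1 pathway gene, Gucy2c, was called lower. That threshold called 5 wider-list genes higher and 4 lower, and 1395 and 934 of all 12877 measured genes. The scanner software's ratios and the series matrix, which hold the same values and replace background correction and normalization together, called 5 and 4 wider-list genes and 1148 and 781 genes overall. Median centring and an offset of 16 each called 2 wider-list genes lower, Slc26a3 and Kcnn4. With 1 array left out, 2 to 3 pathway genes were called higher and 0 lower, 2 to 3 wider-list genes higher and 1 to 2 lower, and 731 genes higher and 330 to 370 lower overall. Slc26a3 ran from -3.11 to -1.26 and Pde1c from 0.63 to 3.08, so their bounds hold for the reported setting only. No paired analysis was possible because both arrays hold 1 RNA pair. Precision is limited by that pair, and dim probes give no ratio.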
